A study of Mus musculus with 16 samples.

Results

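Cell cycle and DNA replication genes were followed in mouse liver as a list of 37 genes, from the D-type cyclins of G1 to the kinases and chromosome factors of mitosis. A gene was taken as measured when a probe set named it alone, and its brightest such probe set, by the mean of the 16 arrays, stood for it. On that basis 35 of the 37 genes were measured, out of 19938 genes with such a probe set. The only probe set of Cdkn1a, which encodes the CDK inhibitor p21, is shared with another gene and was not used. Ccnb1, which encodes cyclin B1, is not named by the platform annotation used here and has no value.

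Liver RNA of mice of strain 129 was hybridised to Affymetrix whole-transcript gene arrays, with 4 arrays for each of 4 genotypes. The altered genotypes were Rassf1a-/-, Sav1+/- and Rassf1a-/- Sav1+/-, and the reference was the wild type of the same strain. Rassf1a is the long isoform of the tumour suppressor gene Rassf1, and Sav1 encodes a scaffold protein of the Hippo kinase pathway, of which Sav1+/- mice keep 1 intact copy. The labels state no treatment and no sex, age or time of day, and they do not say whether the 4 samples of a genotype came from separate animals, so the p-values reflect only how these samples vary.

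A dividing cell passes from G1 into S phase when cyclin D and cyclin E kinases inactivate the retinoblastoma protein and free E2F factors to transcribe replication genes. Genes of G2 and mitosis are transcribed later, through the DREAM and MMB complexes and FOXM1, which act at promoter elements called CHR. CCAAT is a separate promoter element and was searched as well. Hepatocytes of an adult liver are largely quiescent and re-enter the cycle after injury or loss of tissue. In a whole liver, fewer cells of a type and less RNA per cell cannot be told apart.

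Promoter windows of 6 genes are shown because they carry matches to E2F, CHR or CCAAT elements, or, for Tk1, because that gene had the lowest p. Each window runs from 250 bases before to 50 bases after the RefSeq gene start on GRCm38.p6 and is written 5′ to 3′ on the gene's strand. Capitals mark E2F (TTTCGCGC or TTTGGCGC), CHR (TTTGAA or TTCGAA) and CCAAT matches on either strand, and overlapping matches run together. Mcm6 (chr1:128359656-128359955, minus strand) and Mcm5 (chr8:75109259-75109558, plus strand) encode subunits of the replicative helicase. Cdk1 (chr10:69352863-69353162, minus strand), Ccnb2 (chr9:70421505-70421804, minus strand) and Aurka (chr2:172370521-172370820, minus strand) act in G2 and mitosis. Tk1 (chr11:117825965-117826264, minus strand) encodes the cytosolic thymidine kinase of the DNA precursor salvage pathway.
Mcm6: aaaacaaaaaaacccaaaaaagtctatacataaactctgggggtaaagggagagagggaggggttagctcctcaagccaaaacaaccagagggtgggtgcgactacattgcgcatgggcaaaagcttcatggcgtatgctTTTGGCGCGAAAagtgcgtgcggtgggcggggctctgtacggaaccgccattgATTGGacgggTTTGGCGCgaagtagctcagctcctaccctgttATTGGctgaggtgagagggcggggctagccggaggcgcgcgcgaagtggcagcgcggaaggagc
Mcm5: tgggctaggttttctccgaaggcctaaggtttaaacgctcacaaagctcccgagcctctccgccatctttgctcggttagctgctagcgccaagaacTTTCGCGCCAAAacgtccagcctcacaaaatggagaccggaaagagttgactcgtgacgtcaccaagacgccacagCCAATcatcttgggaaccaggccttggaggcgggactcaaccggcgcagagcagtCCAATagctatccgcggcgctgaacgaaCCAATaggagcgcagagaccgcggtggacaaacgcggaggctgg
Cdk1: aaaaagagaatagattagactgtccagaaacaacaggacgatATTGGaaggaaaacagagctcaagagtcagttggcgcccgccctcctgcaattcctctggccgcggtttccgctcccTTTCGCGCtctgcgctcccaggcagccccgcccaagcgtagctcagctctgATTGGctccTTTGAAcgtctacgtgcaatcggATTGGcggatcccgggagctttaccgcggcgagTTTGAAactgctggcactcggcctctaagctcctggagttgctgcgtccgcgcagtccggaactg
Ccnb2: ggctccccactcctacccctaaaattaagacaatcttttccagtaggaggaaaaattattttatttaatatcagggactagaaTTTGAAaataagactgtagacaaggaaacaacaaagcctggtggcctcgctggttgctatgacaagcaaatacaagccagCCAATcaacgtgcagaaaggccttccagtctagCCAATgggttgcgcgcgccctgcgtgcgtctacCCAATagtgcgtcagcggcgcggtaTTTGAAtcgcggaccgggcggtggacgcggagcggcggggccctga
Aurka: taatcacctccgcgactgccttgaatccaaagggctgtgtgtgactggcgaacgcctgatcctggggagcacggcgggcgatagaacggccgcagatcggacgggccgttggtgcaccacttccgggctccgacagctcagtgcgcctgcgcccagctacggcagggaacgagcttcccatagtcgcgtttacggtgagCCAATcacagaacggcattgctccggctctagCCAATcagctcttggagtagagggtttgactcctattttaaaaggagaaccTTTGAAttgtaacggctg
Tk1: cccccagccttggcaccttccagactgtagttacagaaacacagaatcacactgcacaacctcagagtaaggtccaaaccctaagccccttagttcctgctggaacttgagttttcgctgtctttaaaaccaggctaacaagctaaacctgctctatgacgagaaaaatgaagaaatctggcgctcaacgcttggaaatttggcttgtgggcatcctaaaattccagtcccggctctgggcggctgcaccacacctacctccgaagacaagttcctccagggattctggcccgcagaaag

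A window was found for 31 of the 37 genes. An E2F match stood in 6 of them, those of Mcm3, Mcm5, Mcm6, Mcm7, Cdc25a and Cdk1, against 0.929% of the windows of 27025 genes. A CHR match stood in 8 of 10 windows of G2/M and mitotic genes and in 2 of 21 windows of the other listed genes, against 21.7% of all genes. CCAAT was found in 9 of the 10 and in 12 of the 21, against 41.1% of all genes. The E-box CACGTG, an element of clock-controlled promoters, was found in 3 of 31 windows, against 8.09% of all genes. The Tk1 window held none of these letters. A match is a string of letters and was not tested as a binding site.

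Array signal over all probe sets had a median of 7.20 to 7.51 on the log2 scale, and the hepatocyte marker mean lay between 13.15 and 13.49 in all 16 arrays. Sav1 signal was 7.38 to 8.17 in Sav1+/- livers and 7.30 to 7.96 in Rassf1a-/- Sav1+/- livers, against 8.37 to 8.61 in wild-type livers. Both groups that carry the Sav1 allele lay below every wild-type array. Rassf1 signal was 6.94 to 7.42 in Rassf1a-/- livers and 7.48 to 7.71 in Rassf1a-/- Sav1+/- livers, against 7.21 to 7.59 in wild-type livers, but the sources used here do not give which part of the gene the probe set reads. That measurement therefore does not check the Rassf1a genotype. Arrays differed in sex-linked signal. The mean of 3 Y-linked genes lay above 7 in 5 arrays, in which Xist was at or below 4.31, and below it in the other 11, in which Xist was at least 10.34. These comprised replicate 2 of Rassf1a-/-, replicates 3 and 4 of Sav1+/-, and replicates 1 and 2 of Rassf1a-/- Sav1+/- livers, and no wild-type array was among them. These 5 are called the high-Y arrays. Of the 30 differences of listed genes chosen by the smallest p in each comparison, 10 moved by over 1.5 times when these arrays were left out, 0 changed sign and 0 were called. Those 10 are given with and without the high-Y arrays. With those arrays left out, Sav1+/- livers kept only replicates 1 and 2, and Rassf1a-/- Sav1+/- livers only replicates 3 and 4.

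Most of the listed genes were dim in these livers. Signal levels of different genes depend on their probes and are not compared with each other. Against 1035 olfactory receptor probe sets, whose 95th percentile was 7.62, 13 of the 35 measured genes had a higher mean. These were the D cyclins Ccnd1, Ccnd2 and Ccnd3, the G1 kinase genes Cdk4 and Cdk6, Cdkn1b, Ccne1, Mcm4, Pcna, Rrm1, Tyms, Tk1 and Ccnb2. The other 22 lay near background by that measure, and 17 of them still reached the 40th percentile of an array (6.64 to 7.01) in at least 4 arrays, which was the filter for testing. The 5 that did not pass it were E2f1, Cdc6, Mcm6, Bub1 and Mki67. Mki67, which encodes the proliferation marker Ki-67, reached that level in 3 of 16 arrays, and Bub1, a spindle checkpoint kinase gene, in 0 of 16. Dim signal was not particular to the list, as the median of all probe sets, 7.20 to 7.51 over the arrays, also lay below 7.62. The filter passed 30 of the 35 measured genes and 15353 of all 19938 genes.

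**Figure D1:**
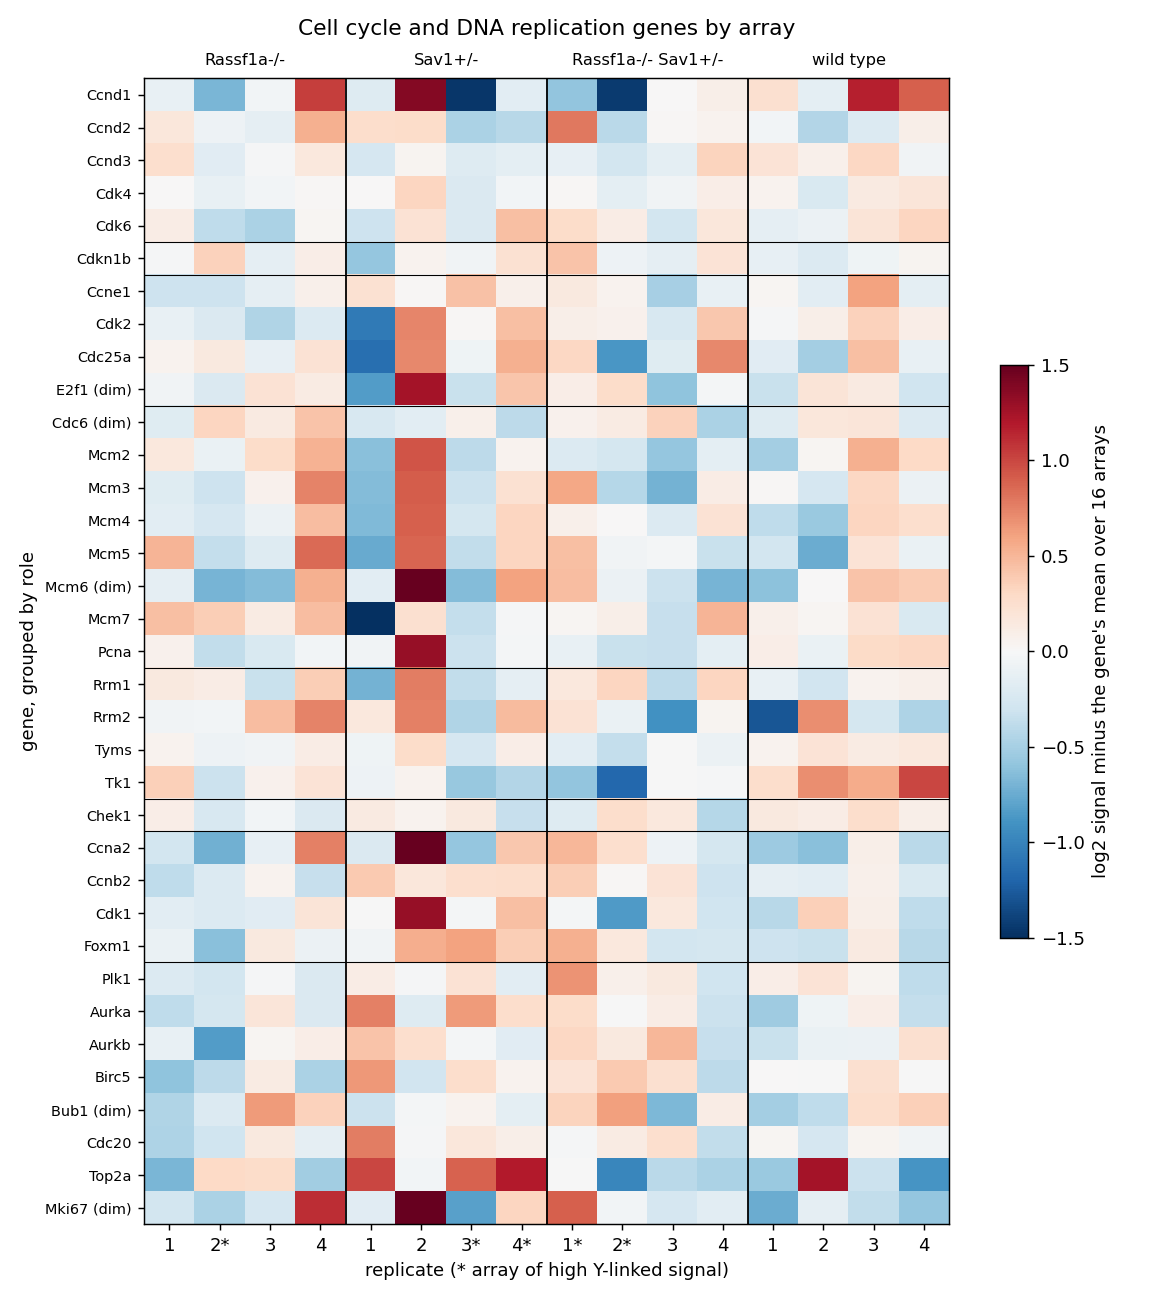
Signal of 35 genes (rows, grouped by role from G1 to mitosis, "dim" where the gene did not pass the filter) in 16 arrays (columns, replicates of each genotype), as log2 signal minus the gene's mean over all arrays. Sav1+/- replicate 2 is the darkest red column in the replication genes, and the Tk1 row is bluest in the high-Y arrays marked with an asterisk.

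None of the 30 genes tested differed between an altered genotype and wild type at a limma adjusted p under 0.05, a difference that passes being referred to as called. In Rassf1a-/- livers 0 of 30 were called, against 0.58% of the 15353 genes tested, and 1 of the 30, against 9.44% of all genes, had an unadjusted p under 0.05. In Sav1+/- livers 0 of 30 were called, against 0% of all genes, while 5 of the 30 and 8.21% of all genes had an unadjusted p under 0.05. In Rassf1a-/- Sav1+/- livers 0 of 30 were called, against 0.638% of all genes, and 2, against 12.1% of all genes, had an unadjusted p under 0.05. The Rassf1a effect averaged over both Sav1 states called 0 of 30, against 1.73% of all genes (1.32% higher and 0.404% lower), with 2 at an unadjusted p under 0.05, against 13.7% of all genes. The averaged Sav1 effect called 0 of 30, against 0.00651%, with 4 at an unadjusted p under 0.05, against 14.1%. The interaction called 0 of 30, against 0%, with 1 at an unadjusted p under 0.05, against 8.9%.

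The 95% interval of a difference from wild type reached a median of 0.51 to either side on the log2 scale over the 30 genes, from 0.28 for Tyms to 1.05 for Ccnd1. Differences smaller than that were not resolved by 4 arrays a group. The interval is not adjusted for the number of genes tested, and larger differences were also not called. Among these were -0.89 for Tk1 in Sav1+/- livers and -1.02 for Ccnd1 in Rassf1a-/- Sav1+/- livers. The median difference over all 35 genes was 0.00 in Rassf1a-/- livers, 0.07 in Sav1+/- livers and 0.05 in Rassf1a-/- Sav1+/- livers, against -0.03, -0.02 and 0.05 for all genes tested. Without Sav1+/- replicate 2 the Sav1+/- median was -0.10, against -0.05 for all genes tested. Without the high-Y arrays the listed genes had a median of 0.07 in Rassf1a-/- livers, 0.13 in Sav1+/- livers and -0.05 in Rassf1a-/- Sav1+/- livers, against -0.01, -0.05 and 0.05 for all genes tested.

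**Figure D2:**
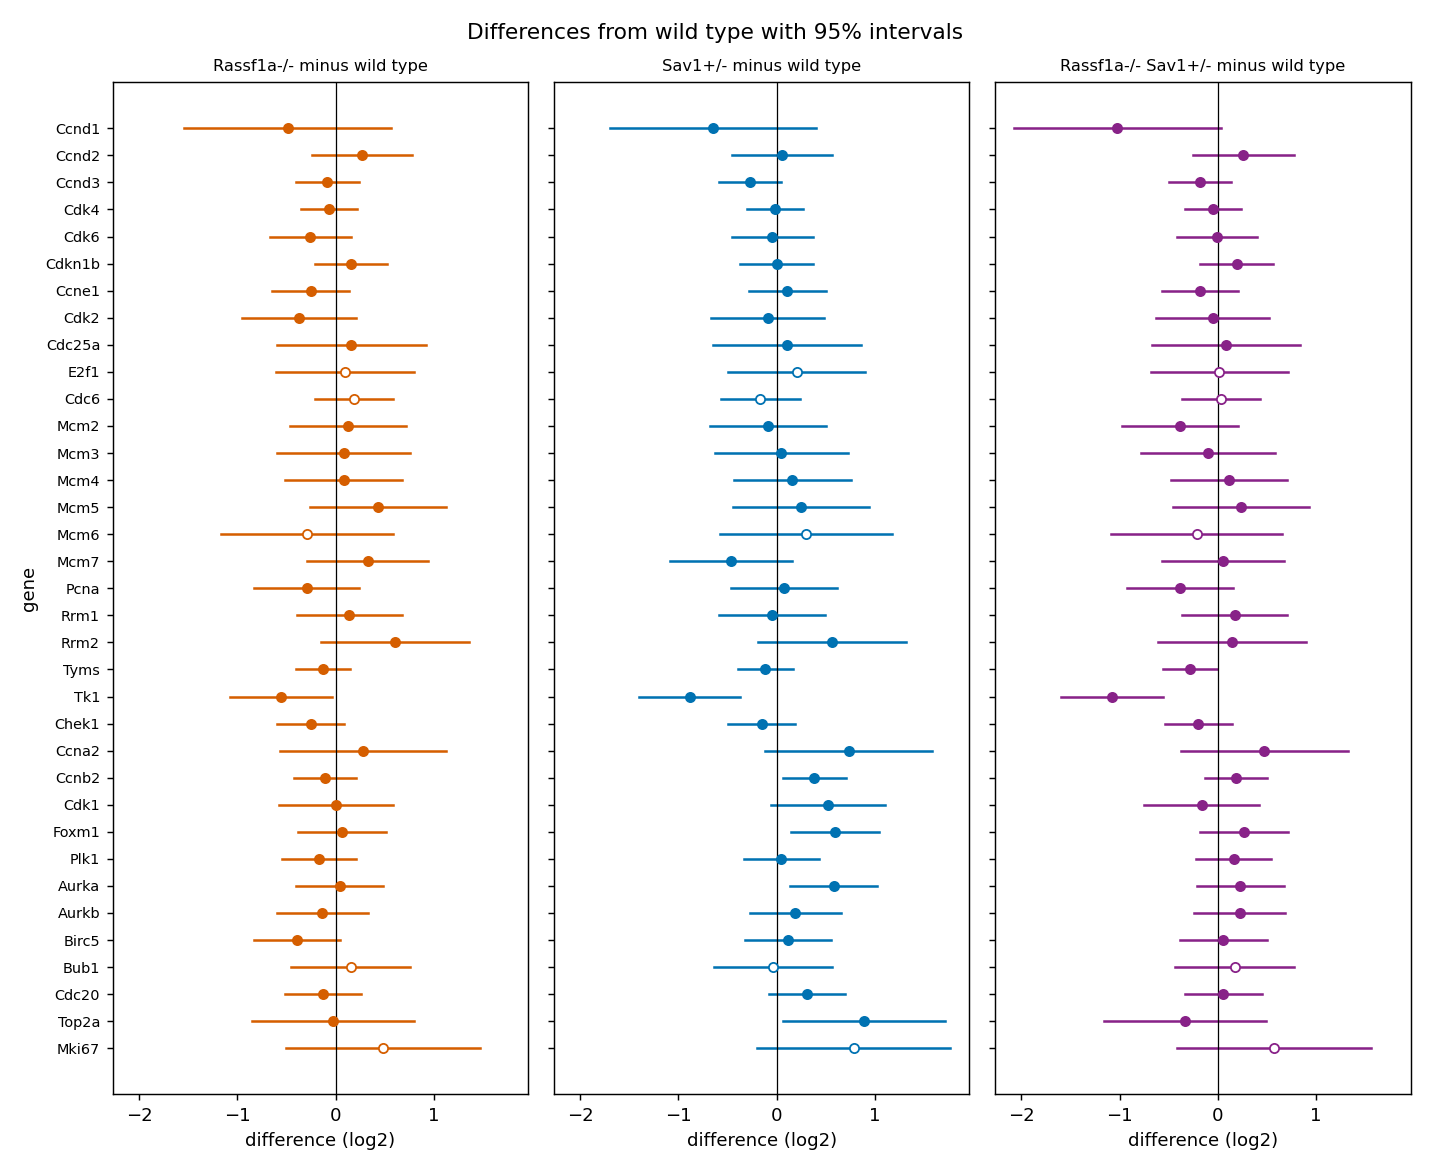
Difference from wild type (log2, x axis) of each of 35 genes (y axis, G1 at the top to mitosis at the bottom) in 3 altered genotypes, with 95% limma intervals and open circles for the 5 genes that did not pass the filter. Tk1 lies lowest in the panels of Sav1+/- livers (-0.89) and Rassf1a-/- Sav1+/- livers (-1.07), and the G2/M genes of Sav1+/- livers lie right of 0.

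The G1 cyclin and kinase genes all exceeded the olfactory receptor background, and none was called in any genotype. Cdk4, the kinase partner of the D cyclins, averaged 11.74 ± 0.06 in Rassf1a-/- livers, 11.79 ± 0.23 in Sav1+/- livers and 11.75 ± 0.10 in Rassf1a-/- Sav1+/- livers, against 11.81 ± 0.18 in wild-type livers (SD, n = 4 each). Its spread within genotypes, 0.16, was at the 7.55th percentile of all genes tested. Ccnd3 and Cdk6 had difference values between -0.27 and -0.01 in the 3 comparisons, and Ccnd2 between 0.06 and 0.27. Cdkn1b, which encodes the CDK inhibitor p27, averaged 10.03 ± 0.20 in Rassf1a-/- livers, 9.88 ± 0.34 in Sav1+/- livers and 10.07 ± 0.26 in Rassf1a-/- Sav1+/- livers, against 9.88 ± 0.10 in wild-type livers (SD, n = 4 each). Its difference from wild type was at most 0.19, and its groups overlapped. A further, dimmer Cdkn1b probe set (mean 6.72) gave 0.28, 0.34 and 0.41 in the same order of genotypes (limma SE 0.23 each).

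Ccnd1, the cyclin D1 gene and a target of mitogen signalling, had the widest spread of these G1 genes. It had signals of 10.61, 10.04, 10.69 and 11.77 in Rassf1a-/- livers, of 10.53, 12.10, 9.27 and 10.57 in Sav1+/- livers and of 10.13, 9.29, 10.73 and 10.81 in Rassf1a-/- Sav1+/- livers. Wild-type livers had 10.97, 10.58, 11.89 and 11.63. All 4 groups overlapped, and Sav1+/- replicates 2 and 3 were the highest and the lowest of the 16 arrays. The spread of Ccnd1 within genotypes, 0.82, stood at the 98.8th percentile of genes tested, near the 97.8th of Ccna2 and the 97.6th of Top2a. The difference from wild type was largest in Rassf1a-/- Sav1+/- livers, at -1.02 ± 0.50 (limma SE, adjusted p 0.430), and -0.49 ± 0.45 without the high-Y arrays (limma SE, adjusted p 0.999). In Sav1+/- livers the Ccnd1 difference was -0.65 with the high-Y arrays. Without them it was 0.05, from replicates 1 and 2 alone, at 10.53 and 12.10.

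None of the genes that bring cells into S phase was called in any genotype. Ccne1, the cyclin E1 gene, averaged 7.60 ± 0.18 in Rassf1a-/- livers, 7.96 ± 0.19 in Sav1+/- livers and 7.67 ± 0.28 in Rassf1a-/- Sav1+/- livers, against 7.85 ± 0.36 in wild-type livers (SD, n = 4 each). Cdk2, the partner kinase of cyclin E, had 7.47, 7.37, 7.13 and 7.38 in Rassf1a-/- livers, against 7.56, 7.67, 7.93 and 7.68 in wild-type livers. The Rassf1a-/- arrays of Cdk2 all lay below wild type, the only non-overlap among 35 genes in that comparison, where 9.98% of all genes tested did not overlap (5.78% higher and 4.2% lower). The difference was -0.37 (adjusted p 0.67). Cdc25a, the phosphatase that activates CDK2, spread from 5.96 to 7.82 over the arrays. E2f1, the transcription factor gene, lay below the filter with 5.73 to 7.81.

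Helicase and fork genes varied more between arrays than between genotypes. Mcm2 to Mcm7 encode the subunits of the MCM helicase, Cdc6 its loader, and Pcna the sliding clamp of the DNA polymerases. The 8 genes had a median difference of 0.10 in Rassf1a-/- livers, 0.06 in Sav1+/- livers and -0.04 in Rassf1a-/- Sav1+/- livers. These medians were 0.19, 0.17 and -0.17 without the high-Y arrays. Mcm2 signals were 7.53, 7.28, 7.65 and 7.90 in Rassf1a-/- livers, 6.75, 8.32, 6.99 and 7.43 in Sav1+/- livers and 7.17, 7.11, 6.80 and 7.23 in Rassf1a-/- Sav1+/- livers, against 6.86, 7.41, 7.91 and 7.67 in wild-type livers. The lowest and the highest Mcm2 value of all 16 arrays were both in Sav1+/- livers, in replicates 1 and 2. Mcm4 spanned 7.12 to 8.68, Mcm3 5.99 to 7.61, Mcm5 5.92 to 7.54, Mcm6 5.67 to 7.96, Mcm7 5.66 to 7.80 and Cdc6 5.35 to 6.24.

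Pcna had 9.94, 9.51, 9.65 and 9.84 in Rassf1a-/- livers, 9.82, 11.19, 9.55 and 9.85 in Sav1+/- livers and 9.77, 9.54, 9.54 and 9.73 in Rassf1a-/- Sav1+/- livers, against 9.98, 9.78, 10.16 and 10.19 in wild-type livers. Every Rassf1a-/- Sav1+/- array lay below every wild-type array, but narrowly, with 9.77 in replicate 1 against 9.78 in wild-type replicate 2. In that comparison 9.66% of all genes tested did not overlap, with 3.99% of all genes lower. Sav1+/- replicate 2 stood above all other arrays. The difference in Rassf1a-/- Sav1+/- livers was -0.38 ± 0.25 (limma SE, adjusted p 0.598). The array has 2 Pcna probe sets with identical values, so they count as 1 measurement.

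Enzymes that supply DNA precursors held the gene with the lowest p of the list. Tk1 had 9.11, 8.44, 8.82 and 8.96 in Rassf1a-/- livers, 8.68, 8.81, 8.19 and 8.32 in Sav1+/- livers and 8.17, 7.58, 8.76 and 8.75 in Rassf1a-/- Sav1+/- livers, against 9.02, 9.45, 9.31 and 9.76 in wild-type livers. Sav1+/- and Rassf1a-/- Sav1+/- arrays all lay below wild type, whereas Rassf1a-/- replicate 1 overlapped it. The difference from wild type was -1.07 ± 0.25 in Rassf1a-/- Sav1+/- livers, a signal 2.10-fold lower (adjusted p 0.0598). It was -0.89 ± 0.25 in Sav1+/- livers (adjusted p 0.282) and -0.55 ± 0.25 in Rassf1a-/- livers (adjusted p 0.492). None of the 3 passed, and the Rassf1a-/- Sav1+/- value sat close to the threshold on either side of which it fell under other settings. Non-overlap by itself was not rare: 4.22% of all genes did not overlap between Sav1+/- and wild-type livers, with 3.77% of all genes lower in Sav1+/-. Between Rassf1a-/- Sav1+/- and wild-type livers 9.66% did not overlap, with 3.99% of all genes lower in Rassf1a-/- Sav1+/-. A further Tk1 probe set gave -0.95 ± 0.24 for Rassf1a-/- Sav1+/- against wild type (limma SE, adjusted p 0.131 over all single-gene probe sets). Probe positions are missing from the sources used here, and whether they also read a near-identical copy of Tk1 was not tested.

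Tk1 moved with sex-linked signal. Over the 4 genotypes the high-Y arrays had 7.58 to 8.44, against 8.68 to 9.76 in the other 11 arrays, without overlap. A limma fit that compared arrays within genotypes, chosen after seeing the data, gave -0.64 ± 0.14 for high-Y minus the other arrays, a signal 1.56-fold lower (adjusted p 0.0124). That call held when any 1 of the 16 arrays was left out, with adjusted p up to 0.0401. In the comparison with wild type, which has no high-Y array, the Rassf1a-/- Sav1+/- difference was -0.63 without the high-Y arrays (adjusted p 0.743) and -0.73 with Y-linked signal as a covariate (adjusted p 0.107). The Sav1+/- difference was -0.64 without the high-Y arrays (adjusted p 0.542). The low-Y arrays alone still lay lower, at 8.76 and 8.75 in Rassf1a-/- Sav1+/- livers and 8.68 and 8.81 in Sav1+/- livers, against 9.02 to 9.76 in wild-type livers.

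Ccnd1 was the other of 2 genes of the list called between high-Y arrays and the others, against 4.31% of all genes tested (1.67% higher and 2.64% lower). It had 9.27 to 10.57 in the high-Y arrays, against 10.53 to 12.10 in the other arrays. The groups overlapped between 10.53 and 10.57. The within-genotype difference was -1.16 ± 0.32 (limma SE, adjusted p 0.0476, 2.24-fold lower), and it was lost when the dim genes were added (adjusted p 0.0756). It was also lost without wild-type replicate 1 or 4, Rassf1a-/- replicate 2 or 4, Sav1+/- replicate 2 or 3, or Rassf1a-/- Sav1+/- replicate 2, 3 or 4, with adjusted p between 0.0587 and 0.160.

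**Figure D3:**
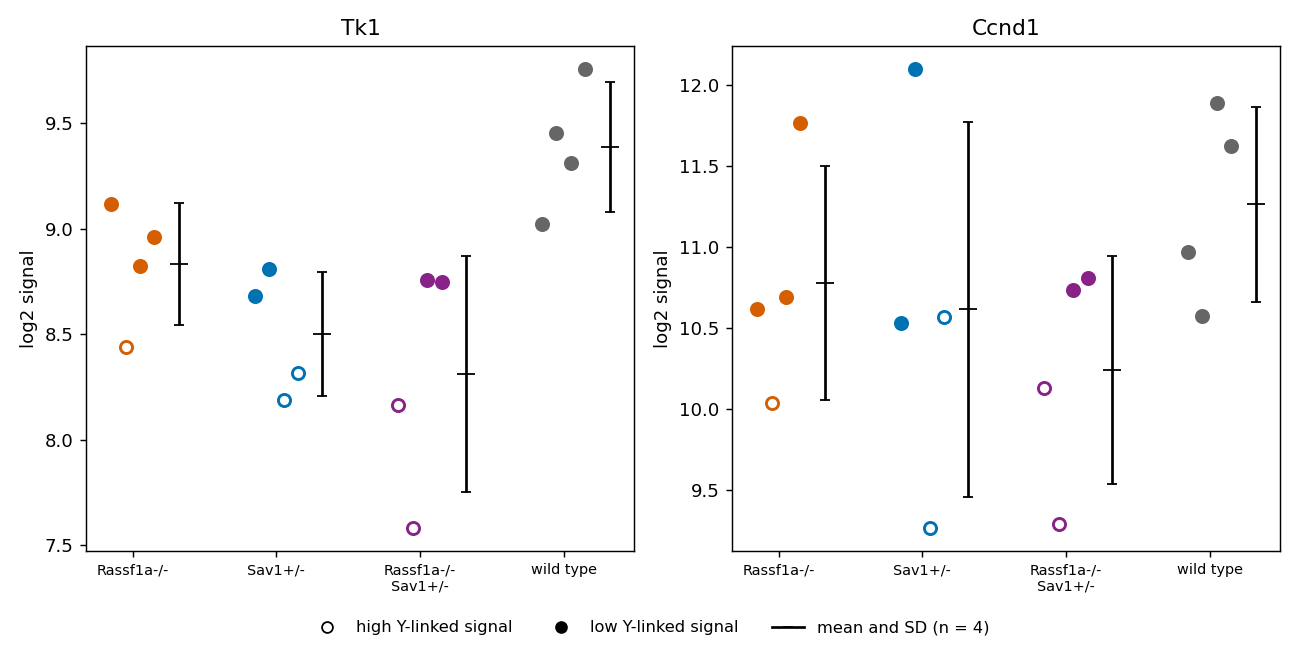
Log2 signal (y axis) of Tk1 and Ccnd1 in each array by genotype (x axis), with open circles for high-Y arrays and the mean and SD of 4 arrays beside them. The open Tk1 circles, 7.58 to 8.44, all lie below the filled ones, 8.68 to 9.76, while the Ccnd1 circles overlap.

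Tyms, the thymidylate synthase gene, had 8.38, 8.25, 8.27 and 8.44 in Rassf1a-/- livers, 8.27, 8.61, 8.08 and 8.43 in Sav1+/- livers and 8.17, 7.97, 8.33 and 8.24 in Rassf1a-/- Sav1+/- livers, against 8.38, 8.53, 8.45 and 8.49 in wild-type livers. Its Rassf1a-/- Sav1+/- arrays all lay below wild type by a small margin, as for 3.99% of all genes tested. The difference was -0.28 ± 0.13 (limma SE, adjusted p 0.400), and -0.18 ± 0.17 without the high-Y arrays (limma SE, adjusted p 0.999). Rrm1 and Rrm2 encode the subunits of ribonucleotide reductase. Rrm1 differed from wild type by -0.05 to 0.17 in the 3 genotypes. Rrm2 spanned 5.18 to 7.21 and had its lowest value in wild-type replicate 1, with a difference of 0.60 ± 0.36 in Rassf1a-/- livers (limma SE, adjusted p 0.613). Chek1, the checkpoint kinase gene of S and G2, differed by -0.25 ± 0.16 in Rassf1a-/- livers (limma SE, adjusted p 0.626).

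Differences of the late genes were mostly positive in Sav1+/- livers, without a call. Of the 12 measured G2/M and mitotic genes, only Ccnb2 exceeded the olfactory receptor background. Bub1 and Mki67 did not pass the filter, which all genes tested did. In Sav1+/- livers 11 of the 12, all but Bub1, had a positive difference from wild type, with a median of 0.45. Among all genes tested 46.7% were positive, with a median of -0.02. The remaining 23 genes of the list had a median of -0.02 there, with 10 positive. In Rassf1a-/- livers 6 of the 12 were positive, with a median of -0.01, and in Rassf1a-/- Sav1+/- livers 10 of 12 with a median of 0.18, where 59.4% of all genes were positive. The comparisons share the wild-type arrays. Without Sav1+/- replicate 2 the Sav1+/- count was again 11 of 12 and the median 0.25. Without the high-Y arrays it was 11 of 12 with a median of 0.45 in Sav1+/- livers and 6 of 12 with a median of 0.01 in Rassf1a-/- Sav1+/- livers.

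Ccnb2, which encodes a mitotic cyclin, had 9.86, 9.63, 9.71 and 9.73 in Sav1+/- livers and 9.83, 9.48, 9.67 and 9.15 in Rassf1a-/- Sav1+/- livers, against 9.33, 9.30, 9.54 and 9.23 in wild-type livers. Every Sav1+/- array lay above wild type, as for 0.449% of all genes tested. The Sav1+/- difference was 0.38 ± 0.15 (limma SE, adjusted p 0.489). Rassf1a-/- livers had Ccnb2 signals of 9.08, 9.26, 9.52 and 9.11, within the range of wild type or below it.

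Foxm1, the transcription factor gene of the G2/M programme, had 6.80, 7.40, 7.46 and 7.23 in Sav1+/- livers, against 6.55, 6.53, 7.001 and 6.45 in wild-type livers. Its Sav1+/- replicate 1 overlapped wild-type replicate 3, and its difference was 0.59 ± 0.21 (limma SE, adjusted p 0.425). Aurka, a spindle kinase gene, had 8.37, 7.42, 8.25 and 7.87 in Sav1+/- livers, against 7.08, 7.55, 7.71 and 7.26 in wild-type livers. Sav1+/- replicate 2 was the only Aurka array of its group within the wild-type range. The Aurka difference was 0.58 ± 0.21 (limma SE, adjusted p 0.428), 0.76 without that array (adjusted p 0.133) and 0.49 without the high-Y arrays (adjusted p 0.831).

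Top2a, which encodes the topoisomerase that separates replicated DNA, had 7.99, 6.94, 7.87 and 8.18 in Sav1+/- livers, against 6.43, 8.24, 6.67 and 6.10 in wild-type livers. Wild-type replicate 2 was the highest of all 16 arrays, and the other wild-type arrays lay below all 4 Sav1+/- arrays. The difference was 0.89 ± 0.39 (limma SE, adjusted p 0.571). The interaction of Rassf1a and Sav1, which asks whether the Sav1 effect differs with the Rassf1a state, was largest for Top2a, at -1.20 ± 0.55 (limma SE, adjusted p 0.545), and -0.74 ± 0.71 without the high-Y arrays (limma SE, adjusted p 0.999). A further, dimmer Top2a probe set (mean 5.04) gave 1.13 ± 0.69 in Sav1+/- livers and an interaction of -0.61 ± 0.97 (limma SE).

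Cdk1, the mitotic kinase gene, had 6.77, 8.10, 6.76 and 7.24 in Sav1+/- livers, against 6.37, 7.14, 6.87 and 6.40 in wild-type livers. Ccna2, the cyclin A2 gene, had 6.70, 8.75, 6.33 and 7.32 in Sav1+/- livers, against 6.37, 6.29, 6.997 and 6.51 in wild-type livers. For both genes Sav1+/- replicate 2 was the highest of the 16 arrays, and the groups overlapped. Plk1, Aurkb, Birc5 and Cdc20, genes of mitotic kinases, of survivin and of an activator of the anaphase-promoting complex, had Sav1+/- differences of 0.05, 0.19, 0.12 and 0.31, and of 0.05, 0.41, 0.13 and 0.43 without the high-Y arrays. Bub1 lay between 4.21 and 5.52 in all arrays. Averaged over both Rassf1a states, the Sav1 effect was 0.34 ± 0.11 for Ccnb2, 0.40 ± 0.15 for Foxm1 and 0.38 ± 0.15 for Aurka (limma SE, adjusted p 0.189, 0.256 and 0.270). With the high-Y arrays left out, the averaged effect was 0.29 ± 0.15 for Ccnb2, 0.11 ± 0.16 for Foxm1 and 0.26 ± 0.20 for Aurka (limma SE, adjusted p 0.9996 for each).

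Sav1+/- replicate 2 stood apart from the other arrays in these genes. It was the highest of 16 arrays for 16 of the 35 genes, a share of 45.7%, against 15.3% of all genes tested. Among the 8 licensing and fork genes it was highest for 6, and among the 4 DNA precursor genes for 3. Mki67 had 8.23 there, against 5.47 to 7.39 in the other arrays. Sav1 signal in this array was 8.17, against 7.60, 7.38 and 7.40 in the other Sav1+/- arrays and 8.37 to 8.61 in wild-type livers. Its Rassf1 signal, 8.14, was the highest of 16. In the same array the mean of 11 Kupffer cell and macrophage markers was 10.95, the highest of 16. The mean of 5 endothelial markers, 10.52, was also the highest of 16, and the cholangiocyte marker mean, 6.72, was the lowest. The mean of 7 neutrophil markers, of which 2 passed the filter, was 7.43, lower only than the 7.68 of Rassf1a-/- replicate 4. The part of these cell types in the values was not tested. Sav1+/- replicate 1 was the lowest array for 9 of the 35 genes (25.7%), against 28.8% of all genes tested, a share close to that of the array as a whole. Over all genes tested its median centred signal was -0.18, the lowest of the 16 arrays, and so was its hepatocyte marker mean. All 9 were among the 23 early genes, and the array was the highest for 4 of the 12 late ones, Ccnb2, Aurka, Birc5 and Cdc20. Without Sav1+/- replicate 2, which leaves replicate 1 as 1 of 3 arrays, 2 of the 23 early genes had a positive difference from wild type in Sav1+/- livers, with a median of -0.17, against 43.1% positive and a median of -0.05 among all genes tested. Of the 23, 13 were positive without the high-Y arrays, where Sav1+/- replicates 1 and 2 alone remained, with a median of 0.05.

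The averaged effects use all 16 arrays and narrow the median 95% interval to 0.36 on either side. With loss of Rassf1a, averaged over Sav1 states, the smallest p among the listed genes belonged to Top2a, at -0.63 ± 0.28 (limma SE, adjusted p 0.318). Tk1, Pcna and Ccne1 followed with -0.37 ± 0.17, -0.38 ± 0.18 and -0.27 ± 0.13, and Mcm7 with 0.42 ± 0.21 (limma SE, adjusted p 0.359 to 0.395). Of these 5, Tk1 moved by over 1.5 times without the high-Y arrays, to -0.21 ± 0.15 (limma SE, adjusted p 0.733). For the same averaged effect the dimmer Top2a probe set gave -0.20 ± 0.49 (limma SE). With loss of 1 Sav1 copy, averaged over Rassf1a states, Tk1 had -0.70 ± 0.17 (limma SE, adjusted p 0.130) and Birc5 0.28 ± 0.15 (limma SE, adjusted p 0.398). When the high-Y arrays were left out, these effects were -0.43 ± 0.15 for Tk1 and 0.19 ± 0.21 for Birc5 (limma SE, adjusted p 0.9996 for each). In the interaction, Rrm2 had -1.02 ± 0.50 and Cdk1 -0.69 ± 0.39, and Foxm1 and Aurka each had -0.39 ± 0.30 (limma SE, adjusted p 0.579 to 0.745). The interaction was larger without the high-Y arrays for Rrm2, at -1.60 ± 0.63, and for Foxm1, at -0.73 ± 0.31 (limma SE, adjusted p 0.971 and 0.989). In the single comparisons with wild type, Birc5 differed by -0.39 ± 0.21 and Ccne1 by -0.25 ± 0.18 in Rassf1a-/- livers (limma SE, adjusted p 0.572 and 0.664), and Mcm2 by -0.38 ± 0.28 in Rassf1a-/- Sav1+/- livers (limma SE, adjusted p 0.642).

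**Figure D4:**
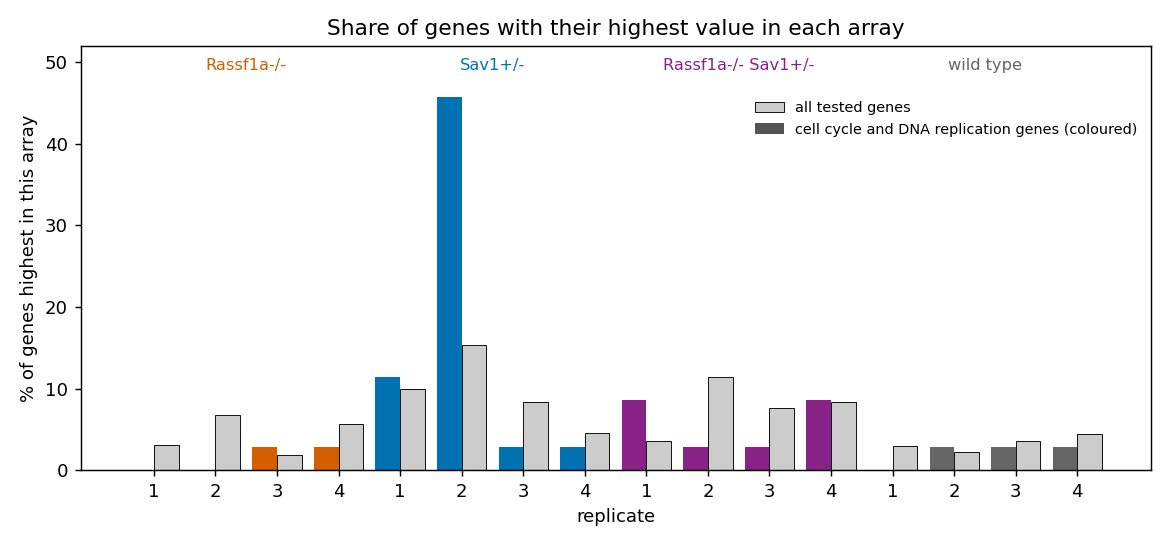
Percentage of genes (y axis) whose highest value lies in each array (x axis, replicates by genotype), for the cell cycle and DNA replication genes (coloured) and all genes tested (light grey). Sav1+/- replicate 2 holds the highest value of 45.7% of the cell cycle genes, against 15.3% of all genes.

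Related genes outside the list were read from lists of the same pathway. Wee1, which encodes the kinase that holds CDK1 inactive and is known as a clock-controlled gene of liver, had 7.17, 7.45, 7.45 and 7.74 in Rassf1a-/- livers and 7.27, 5.97, 6.88 and 7.96 in Rassf1a-/- Sav1+/- livers, against 9.50, 9.34, 10.17 and 10.58 in wild-type livers. Both groups lacking Rassf1a lay below every wild-type array. The gene fell by 2.45 on the log2 scale in Rassf1a-/- livers (adjusted p 0.0013) and fell by 2.88 in Rassf1a-/- Sav1+/- livers (adjusted p 0.000574), while Sav1+/- livers had 8.50 to 9.23 and a difference of -0.94 (adjusted p 0.426). Of 13 core clock genes, 2 rose and 6 fell in Rassf1a-/- livers, against 0.365% of all genes tested called higher and 0.215% called lower. In Rassf1a-/- Sav1+/- livers 3 rose and 6 fell, against 0.261% of all genes higher and 0.378% lower. Without the high-Y arrays 2 rose and 6 fell in Rassf1a-/- livers (0.352% of all genes called), and 0 were called in Rassf1a-/- Sav1+/- livers (0.0261% of all genes called). The part of clock phase in the Wee1 values was not tested. The list of other G2/M and mitotic genes had 29 of 50 measured genes tested, of which 0 were called higher and 1 lower, Wee1, in each of these 2 comparisons, where 0.215% and 0.378% of all genes were called lower. The Wee1 calls held without the high-Y arrays, with differences of -2.45 and -2.48 (adjusted p 0.00430 and 0.0329). In Sav1+/- livers 0 of the 29 were called, 35 of the 50 had a positive difference and the median was 0.17.

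E2f8, an atypical E2F repressor, had 9.23, 8.44, 8.83 and 8.64 in Rassf1a-/- livers and 8.36, 8.98, 8.52 and 9.36 in Rassf1a-/- Sav1+/- livers, against 8.03, 6.57, 7.08 and 7.86 in wild-type livers. Sav1+/- livers had 6.67, 8.63, 7.77 and 7.79. Both groups lacking Rassf1a lay above every wild-type array. Averaged over Sav1 states, E2f8 rose by 1.25 ± 0.26 with loss of Rassf1a, 2.38-fold (limma SE, adjusted p 0.0176), and without the high-Y arrays the difference was 1.41 ± 0.36 and did not pass (limma SE, adjusted p 0.127). Lin37, a DREAM complex subunit gene, had 8.89, 9.12, 9.03 and 8.91 in Rassf1a-/- livers and 9.08, 9.18, 9.02 and 8.95 in Rassf1a-/- Sav1+/- livers, against 8.73, 8.50, 8.64 and 8.47 in wild-type livers. It rose by 0.39 ± 0.09 in the averaged effect (limma SE, adjusted p 0.0353), a call lost in 13 of 24 other settings. Without the high-Y arrays, one of those settings, the difference was 0.42 ± 0.12 (limma SE, adjusted p 0.172). These were the 2 called among 17 tested genes of the other G1/S list in that effect, where 1.73% of all genes were called, and none of that list was called in the 3 comparisons with wild type.

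Rnaseh2a, a subunit gene of the RNase that removes RNA from replicated DNA, was the 1 called gene of 37 tested in the list of other replication genes in Rassf1a-/- Sav1+/- livers, where 0.638% of all genes were called. It had 9.23, 9.44, 9.14 and 9.20 there, against 9.63, 9.92, 10.07 and 9.81 in wild-type livers, without overlap. Sav1+/- livers had 9.29, 9.41, 9.17 and 9.38, also all below wild type, as for 3.77% of all genes. Their difference was -0.54 ± 0.13 (limma SE, adjusted p 0.218). Rassf1a-/- livers had 9.43, 9.57, 9.35 and 9.67 and overlapped wild type. In Rassf1a-/- Sav1+/- livers Rnaseh2a fell by 0.61 on the log2 scale (limma SE 0.13, adjusted p 0.0446). The call was lost in 16 of 25 other settings, with the highest adjusted p, 0.419, without the high-Y arrays, where the difference was -0.69 ± 0.18 (limma SE). Among 6 other CDK inhibitor genes and among 15 tested genes of p53 and its targets, 0 were called in any comparison. The lowest p among them in Rassf1a-/- Sav1+/- livers belonged to the p53 target Gadd45b, at -1.32 ± 0.49 (limma SE, adjusted p 0.274), and to Cdkn2c, the p18 gene, at -1.59 ± 0.61 (limma SE, adjusted p 0.298). These differences were -0.62 for Gadd45b and -0.45 for Cdkn2c without the high-Y arrays.

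**Figure D5:**
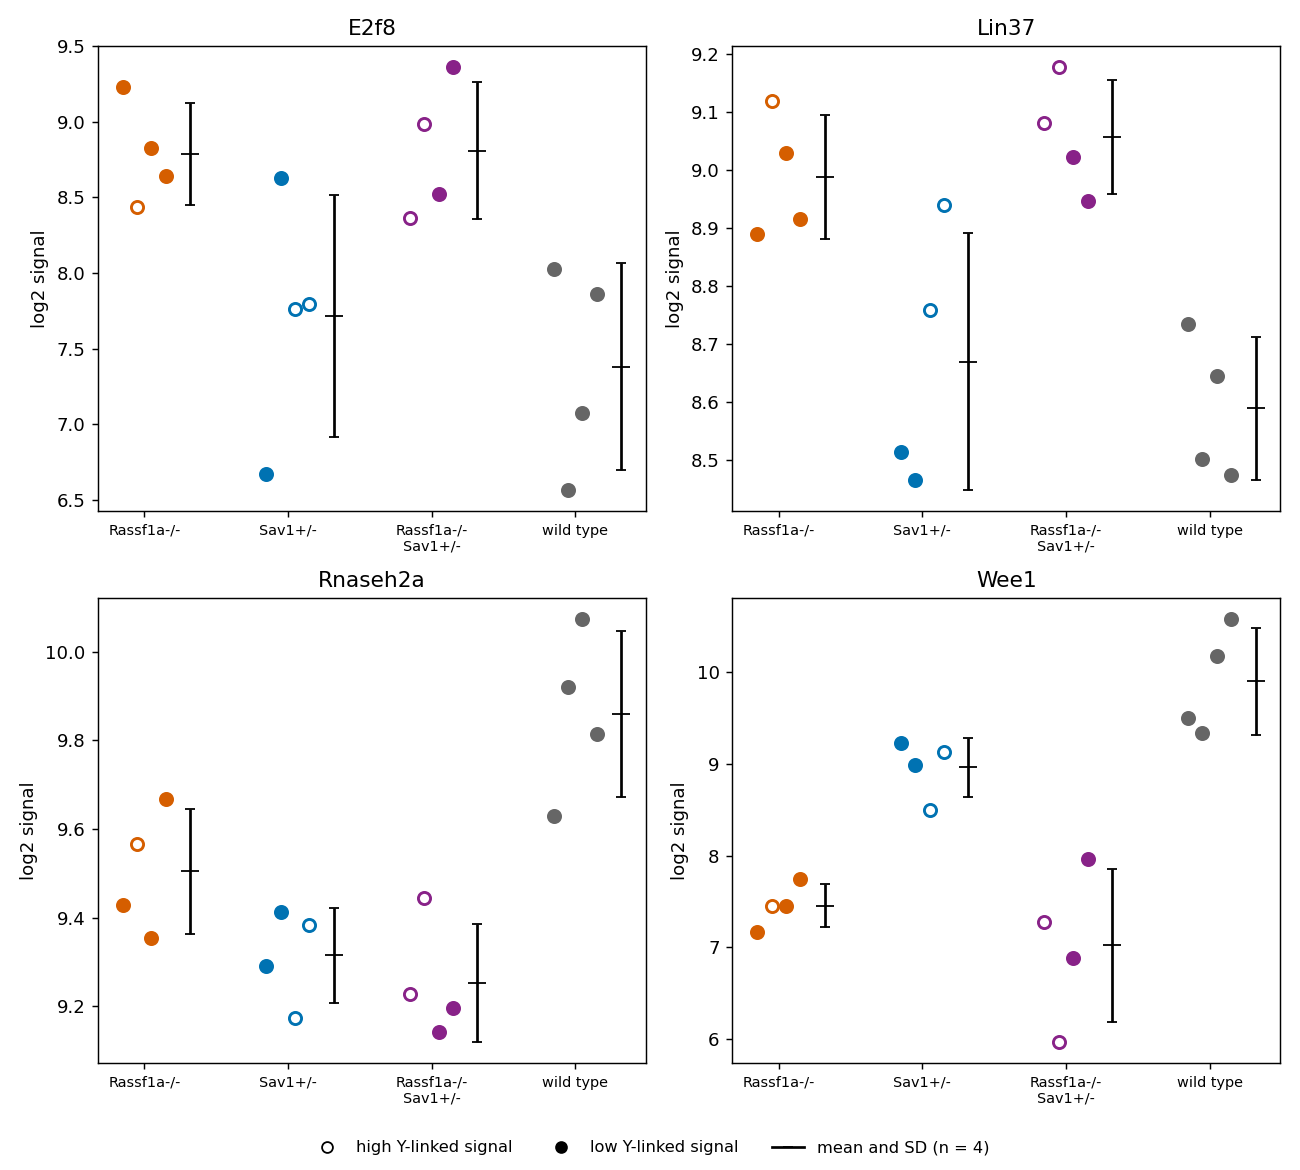
Log2 signal (y axis) of E2f8, Lin37, Rnaseh2a and Wee1 in each array by genotype (x axis), with open circles for high-Y arrays and the mean and SD of 4 arrays beside them. E2f8 and Lin37 lie above wild type, and Wee1 below it, in both groups lacking Rassf1a.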

How the data were processed

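Liver RNA of 16 samples in 4 genotypes was measured on Affymetrix arrays. Per the submitters' processing notes, the authors used Affymetrix Expression Console, and they deposited log2 signals per probe set. The sources used here do not give its version, summarisation or normalization. Genotypes came from the labels, and replicates are numbered in deposited order.

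Of 35556 probe sets, the platform annotation gives 21789 a single gene, for 19938 genes. Probe sets of several genes (1621) or no listed gene (12146) were left out. A gene was tested where its probe set was at or above the 40th percentile of an array in 4 arrays or more (15353 genes). limma 3.58.1 (lmFit, eBayes; R 4.3.3, data.table package, version 1.17.8) was fitted to 4 genotype means with 12 residual degrees of freedom. Tests were two-sided, with Benjamini-Hochberg adjustment over all genes tested and calls at 0.05. Errors beside differences are limma's SE, and those beside means are SD.

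The genes and lists were chosen with earlier results of these data known. Every measured gene is given with a level. Differences are given for called genes and for the 5 with the smallest p in each comparison, and for the remaining genes by value or range. From each pathway list, called genes and the 2 with the smallest p could be named. Alternatives were other filters, quantile normalization, averaging the probe sets of a gene, trended robust variance, only the compared genotypes, Y-linked signal as a covariate, and leaving out the high-Y arrays or each array in turn. The single-gene percentile filter and the comparison of high-Y with other arrays were added after seeing the data. The pipeline was tested on simulated data. Promoters came from RefSeq (GRCm38.p6). The number of arrays limits the precision.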

Additional observations from a re-analysis of the deposited data

Results flagged for a closer look

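Among 140 groups of 4 arrays checked for an array far from its 3 neighbours (35 genes in 4 genotypes), 3 stood out. That is fewer than the share of about 1 in 20 groups that chance alone picks out. Cdk1 had 6.98 in Rassf1a-/- replicate 4, above the 6.58 to 6.63 of the other Rassf1a-/- arrays. Mki67 had 7.39 in the same array, against 5.81 to 6.03 in the others of its group. That array also had the highest mean of the neutrophil markers, 7.68, and of the B cell markers, 7.58. Of the 7 neutrophil markers, 2 passed the filter. Whether these cell types have a part in the Cdk1 and Mki67 values was not tested. Birc5 had 7.67 in wild-type replicate 3, against 7.42 to 7.44 in the other wild-type arrays.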

How the results depend on the processing

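No paired analysis was possible because replicates carry no number in the labels, and numbers given in deposited order pair nothing. No gene of the list was called in any of the 6 comparisons with the genotypes under any setting, except Tk1 in Rassf1a-/- Sav1+/- against wild type. There the count was 1 under the 60th percentile filter, quantile normalization and trended robust variance (adjusted p 0.0388, 0.0393 and 0.0215), and it ranged from 0 to 1 over the omission of single arrays, being 1 without Sav1+/- replicate 1 (adjusted p 0.0480) or Rassf1a-/- Sav1+/- replicate 4 (adjusted p 0.0323). The cause was not tested. The median difference in Sav1+/- livers ranged from -0.10 to 0.15 when single arrays were left out, the lowest without Sav1+/- replicate 2. The median interaction was -0.30 without the high-Y arrays, against -0.07 with them. Between high-Y and other arrays the count of called genes was 1 (Tk1) with no filter on dim probe sets and with trended robust variance, against 2, and 1 to 2 over single omitted arrays. None of the differences chosen by the smallest p or as calls changed sign under these alternatives. Outside that choice, the Sav1+/- difference of Ccnd1 was 0.05 without the high-Y arrays, where Sav1+/- replicates 1 and 2 remained, against -0.65 with them. Dim signal limits most of the list: 22 of the 35 genes, among them every late gene but Ccnb2, lay near the olfactory receptor background. Small differences there were not resolvable with 4 arrays a group.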
